A study of Mus musculus with 15 samples.

Results

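The SR splicing factors described here are 10 listed mouse genes, Srsf1, Srsf2, Srsf3, Srsf4, Srsf5, Srsf6, Srsf7, Srsf9, Srsf10 and Srsf11, of 34554 genes and added sequences in the files. They were chosen by name, with earlier results of these data known. Their 73 annotated transcripts are among 109304 in the files. RNA was sequenced from organoids of normal mouse pancreatic ducts, grown in Matrigel. Of the 5 organoid lines, 3 (A217, A220 and A225, called inducible) carry every allele needed for doxycycline to switch on the glycan CA19-9, and 2 (A218 and A223, called negative) lack 1 of these alleles; the labels do not name the missing allele. Each line gave 1 library after 0 h without doxycycline and 1 each after 4 h and 24 h of doxycycline at 1 µg/ml, 15 libraries in all. Both genotypes received doxycycline, so the change with hours is given over both genotypes and within each, and the difference of their responses is tested apart. Library totals ran from 47915632 to 59411540 estimated counts. Of 12 duct markers 11 averaged over 1 TPM, with sums of 10657 to 17694 TPM. The 6 acinar markers summed to at most 2.77 TPM, with 2 of them at 0 throughout. The 5 endocrine markers summed to at most 0.267 TPM, with 3 at 0. Sums reached at most 1.683 TPM for 6 fibroblast, 2.855 TPM for 4 immune and 5.036 TPM for 3 endothelial markers. Outside the duct list Cela1 (acinar), Cd68 (immune) and Pecam1 (endothelial) averaged over 1 TPM. Within a group, all 12 pairs of libraries differed beyond counting noise, with chi-square values of 16.02 to 47.45 per degree of freedom. The number of donor animals behind the lines is not stated, so each p-value is about spread among lines, not among mice.

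SR proteins carry an RNA recognition motif and a domain rich in arginine and serine. They bind exonic enhancers and help recruit the spliceosome to nearby splice sites. Many SR genes also limit their own output: when the protein is abundant, a cassette exon with an early stop codon (a poison exon) is spliced in, or an intron is kept, and the resulting RNA is destroyed by nonsense-mediated decay or held in the nucleus. In the annotation such RNAs appear as transcripts of the types nonsense_mediated_decay and retained_intron, beside the protein_coding ones. Both of these types are called unproductive here.

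The sequences that carry the isoform results are shown first (GENCODE M21 transcripts, GRCm38, each 5′ to 3′). The poison exons of Srsf3 and Srsf6 define the most abundant nonsense_mediated_decay transcripts of the family, and each is given from its first base to the premature stop codon in its reading frame, in capitals. That of Srsf3-201 starts at chr17:29039454-29039487 (+ strand) within an exon that ends at 29039909, and that of Srsf6-201 at chr2:162932815-162932966 (+ strand) within an exon that ends at 162933082. The last sequences are the ends of the intron of Srsf5 that Srsf5-212 keeps, which is intron 5 of 7 in the leading coding transcript, Srsf5-201, lies between coding exons and is 1229 bases long (chr12:80947866-80949094, + strand). The 5′ splice site is shown with the last 10 exon bases and the first 20 intron bases, and the 3′ splice site with the last 30 intron bases and the first 10 exon bases; the terminal dinucleotides of the intron are in capitals.
Srsf3-201 poison exon: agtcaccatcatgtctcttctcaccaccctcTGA
Srsf6-201 poison exon: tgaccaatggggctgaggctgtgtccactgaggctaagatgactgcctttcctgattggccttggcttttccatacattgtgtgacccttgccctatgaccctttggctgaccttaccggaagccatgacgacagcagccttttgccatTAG
Srsf5 intron 5, 5′ splice site: cagctggcagGTttgttgaaatacagtttt
Srsf5 intron 5, 3′ splice site: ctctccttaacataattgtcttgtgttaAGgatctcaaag

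All 10 genes were expressed in every library and passed edgeR's expression filter. Per length, in the deposited TPM summed over each gene's transcripts, the order at 0 h was Srsf3 (433 ± 17.1 TPM, SD, n = 5 lines), Srsf2 (324 ± 14.6), Srsf5 (313 ± 10.1), Srsf6 (201 ± 7.3), Srsf1 (177 ± 9.03), Srsf7 (116 ± 4.43), Srsf10 (116 ± 7.31), Srsf9 (113 ± 1.91), Srsf11 (85.9 ± 4.71) and Srsf4 (39.8 ± 2.12). The ranges over lines overlapped between Srsf2 and Srsf5 and among Srsf7, Srsf10 and Srsf9, and each other neighbouring pair was separate. The Srsf1 value understates that gene. Each of its 7 transcripts has a second identifier in the files, absent from GENCODE M21, with the same length and the same estimated counts in every library, so the reads were shared evenly between both copies. With the copies added, Srsf1 stood at 354 ± 18.1 TPM at 0 h, with its mean between those of Srsf3 and Srsf2; its range over lines (327.0 to 370.4 TPM) was below that of Srsf3 and overlapped with that of Srsf2 (302.8 to 339.1 TPM). Its fold changes are not touched by the even split.

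**Figure D1:**
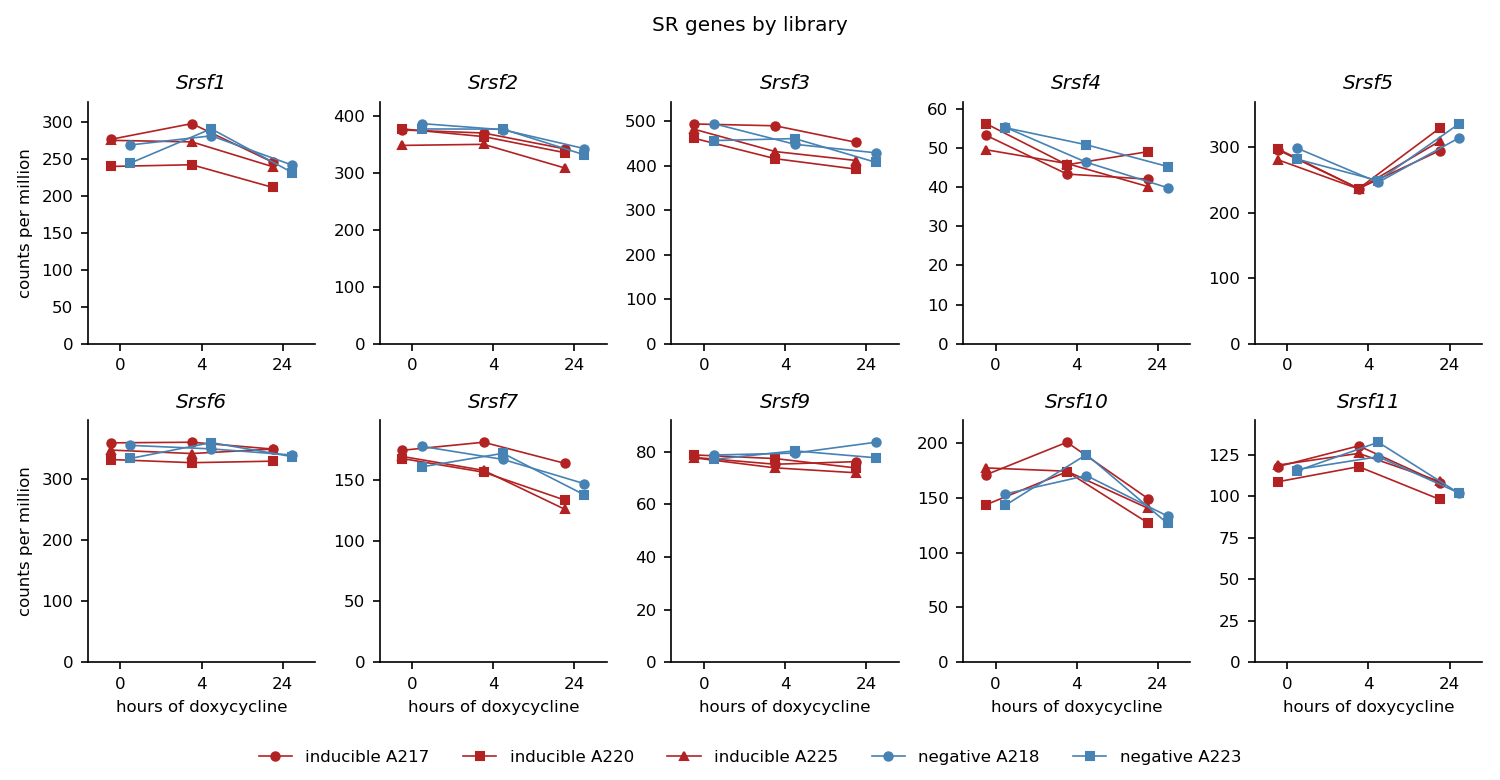
CPM (TMM-scaled, y axis from 0) of the 10 SR genes against hours of doxycycline (0, 4 and 24, evenly spaced), with 1 line per organoid line, inducible in red and negative in blue. Srsf5 dips at 4 h in all 5 lines, and 7 of the 10 genes are lower at 24 h than at 0 h in all 5 lines.

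After 24 h of doxycycline most of the family was modestly lower. Averaged over both genotypes, edgeR's quasi-likelihood test called 6 of the 10 genes lower and 1, Srsf5, higher at an adjusted p below 0.05, where it called 18.7% of the 16462 genes tested in either direction and 7.78% lower. The log2 changes of the members at 24 h had a median of -0.16, against 0.00 for all genes. In each of the 5 lines, 7 members had fewer CPM (estimated counts scaled to a common library size) at 24 h than at 0 h, which 18.1% of all genes did. The p-values given below for single genes are edgeR's, adjusted over all genes tested, and errors of log2 changes are SE.

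The largest change was that of Srsf4, a long SR protein. At 24 h it measured 42.1, 49.1 and 40.2 CPM in inducible lines A217, A220 and A225 and 39.9 and 45.3 CPM in negative lines A218 and A223, against 53.3, 56.3 and 49.6 CPM in the inducible lines and 55.3 and 55.2 CPM in the negative lines at 0 h. The 24 h and 0 h values did not overlap. The log2 change was -0.33 ± 0.06 (adjusted p = 0.00396), and it held with each of 10 libraries left out in turn.

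Srsf3, the smallest SR protein and an adaptor for mRNA export, had 452, 392 and 411 CPM in inducible lines and 429 and 407 CPM in negative lines at 24 h, against 493, 461 and 482 CPM in inducible lines and 494 and 456 CPM in negative lines at 0 h. The values did not overlap, and the log2 change was -0.19 ± 0.05 (adjusted p = 0.0287). Srsf2, which as the protein SC-35 marks nuclear speckles, had 342, 336 and 309 CPM in inducible lines and 343 and 332 CPM in negative lines at 24 h. At 0 h it had 375, 377 and 348 CPM in inducible lines and 387 and 377 CPM in negative lines, again without overlap, and the log2 change was -0.17 ± 0.04 (adjusted p = 0.0128). Srsf2, Srsf3 and Srsf4 were the 3 members without overlap between 24 h and 0 h, a pattern of 13.2% of all genes. These values sum all transcript types of a gene. In CPM of coding transcripts alone Srsf2 did not overlap either. Srsf3 and Srsf4 did overlap there, though each was lower in 5 of 5 lines.

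The other 3 called lower at 24 h overlapped with 0 h, but each was lower within every line. Srsf7, whose protein pairs a zinc knuckle with the RNA recognition motif, averaged 141 ± 14.5 CPM at 24 h and 170 ± 6.48 CPM at 0 h (SD, n = 5; log2 change -0.26 ± 0.07, adjusted p = 0.0191). Srsf10, which in its dephosphorylated form represses splicing in stressed cells, averaged 135 ± 9.59 CPM at 24 h and 158 ± 15.7 CPM at 0 h (-0.22 ± 0.07, adjusted p = 0.0445). Srsf11, whose human protein binds the U2 auxiliary factor, averaged 104 ± 4.59 CPM at 24 h and 115 ± 3.93 CPM at 0 h (-0.16 ± 0.04, adjusted p = 0.0259).

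Srsf1, the prototype of the family, was lower in 5 of 5 lines at 24 h without passing the test (log2 change -0.15 ± 0.07, adjusted p = 0.126); with the line as a replicate block, which removes constant differences between lines, it was called lower (adjusted p = 0.00105). Srsf6 (-0.02 ± 0.04, adjusted p = 0.766) and Srsf9 (-0.01 ± 0.03, adjusted p = 0.82) did not pass, and both were lower in 3 and higher in 2 lines. For Srsf9 the split followed genotype, with log2 changes of -0.03, -0.094 and -0.11 in inducible A217, A220 and A225. In negative A218 and A223 they were 0.086 and 0.011. The difference between these responses did not pass, as given below. With the block the 24 h comparison called 8 of the 10 members, where it called 36.2% of all genes. Of the 7 calls without the block, that of Srsf4 survived each left-out library; that of Srsf2 was lost without negative A223 at 24 h (adjusted p = 0.0533), and those of Srsf5, Srsf10, Srsf3, Srsf11 and Srsf7 were lost in 9, 8, 5, 4 and 2 of 10 cases, with the libraries named at the end of the text.

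**Figure D2:**
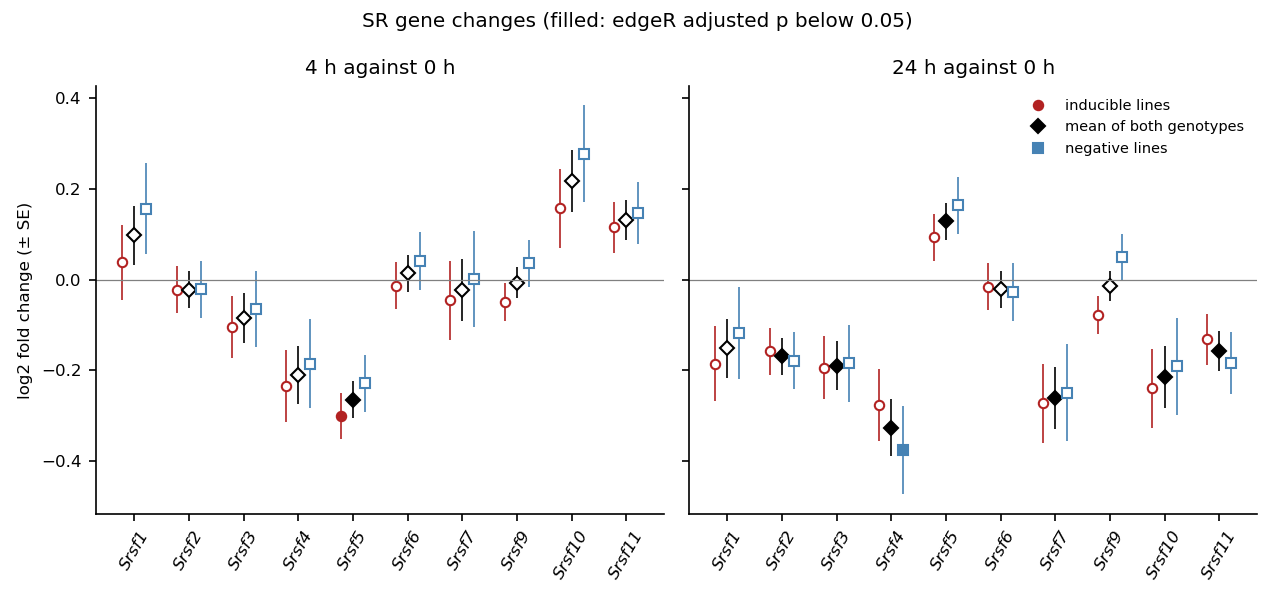
Log2 fold change (± SE, edgeR with TMM scaling) of each SR gene at 4 h (left) and 24 h (right) against 0 h, in inducible lines (red circles), averaged over both genotypes (black diamonds) and in negative lines (blue squares). Filled symbols passed an adjusted p of 0.05; at 4 h only Srsf5 did, and at 24 h the averaged values of 7 genes did.

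At 4 h Srsf5 was the member that fell. The comparisons at 4 h and 24 h share the 0 h libraries, so their values are given side by side only. Srsf5, first known in rat as a gene induced in regenerating liver, had 237, 237 and 236 CPM in inducible lines and 247 and 249 CPM in negative lines at 4 h. At 0 h it had 296, 298 and 281 CPM in inducible lines and 299 and 282 CPM in negative lines, all above the 4 h values. It was the 1 member without overlap between 4 h and 0 h, where 4.33% of all genes had none. The log2 change at 4 h was -0.26 ± 0.04 over both genotypes (adjusted p = 0.00568), where edgeR called 0.972% of all genes, and it was the 1 member called. The call was lost without negative A218 at 0 h (adjusted p = 0.0573) and kept in the other 9 of 10 cases.

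By 24 h Srsf5 had turned the other way. It then had 295, 329 and 310 CPM in inducible lines and 315 and 336 CPM in negative lines, higher than at 0 h in 4 of 5 lines and overlapping with it. The log2 change at 24 h was 0.13 ± 0.04 (adjusted p = 0.0409).

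Among the others at 4 h, Srsf4 was lower in 5 of 5 lines (-0.21 ± 0.06, adjusted p = 0.157) and Srsf11 higher in 5 of 5 lines (0.13 ± 0.04, adjusted p = 0.221). Srsf10 was higher in 4 of 5 lines (0.22 ± 0.07, adjusted p = 0.186). These 3 did not pass, but with the line as a replicate block they did (adjusted p = 0.00514 for Srsf4, 0.00804 for Srsf11 and 0.00559 for Srsf10), and 4 members were then called, where the block called 9.43% of all genes. The median log2 change of the members at 4 h was -0.01, against 0.00 for all genes.

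Within single genotypes fewer members passed. In inducible lines at 4 h Srsf5 was called lower (-0.30 ± 0.05, adjusted p = 0.0207), where 0.292% of genes were called; leaving out single libraries ended that call in 5 of 6 cases. In negative lines at 4 h edgeR called 0 members and 0.176% of genes. An unadjusted p below 0.05 was reached by 3 members and by 1028 of 16462 genes. DESeq2 called 1 member and 100 genes, and the blocked fit 2 members and 409 genes. In inducible lines at 24 h edgeR called 0 members and 5.1% of genes. An unadjusted p below 0.05 was reached by 7 members and by 3649 of 16462 genes. DESeq2 called 4 members and 1819 genes, and the blocked fit 7 members and 4047 genes. In negative lines at 24 h Srsf4 was called lower (-0.38 ± 0.10, adjusted p = 0.0488), where 4.06% of genes were called. The blocked fit called 6 members and 3739 of 16462 genes. Without any 1 of the 4 libraries the Srsf4 call was lost.

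The responses of inducible and negative lines were set against each other directly, the comparison that bears on CA19-9. Neither edgeR nor DESeq2 called any of the 10 members for a difference of response at 4 h or at 24 h, 0 had an unadjusted p below 0.05 in edgeR, and 0.0121% of genes were called by edgeR at each time. The differences, inducible minus negative, lay between -0.12 and 0.00 at 4 h and between -0.13 and 0.10 at 24 h on the log2 scale. For Srsf5 the change at 4 h was -0.30 ± 0.05 in inducible lines and -0.23 ± 0.06 in negative lines. Before doxycycline, inducible and negative lines differed by -0.06 to 0.14 (log2) across the members, with 0 members called by edgeR or DESeq2, 0 at an unadjusted p below 0.05 and 0.0% of genes called by edgeR. At 4 h and 24 h of doxycycline 0 members were called either, with 0.0121% of genes called at each time. At 24 h 1 member and 934 of 16462 genes had an unadjusted p below 0.05. With 3 lines against 2, these tests do not show that the genotypes act alike.

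The members differed widely in the share of their estimated counts that was unproductive. At 0 h the nonsense_mediated_decay type took 27.0 ± 0.77% of the estimated counts of Srsf6 and 16.9 ± 1.23% of those of Srsf3 (SD, n = 5 lines), 5.06 ± 0.49% of those of Srsf4 and at most 1.28 ± 0.26% elsewhere. These were largely the 2 poison exon transcripts shown above, Srsf6-201 and Srsf3-201. The retained_intron type took 27.6 ± 1.5% of Srsf3, 17.5 ± 1.64% of Srsf5, 9.18 ± 0.44% of Srsf11, 8.16 ± 2.08% of Srsf4, 6.18 ± 0.36% of Srsf1, 5.11 ± 0.47% of Srsf6 and 4.16 ± 0.5% of Srsf2. Coding transcripts gave 55.5 ± 2.35% of Srsf3 counts and 94.6 ± 0.42% of Srsf2 counts. Per length, in TPM, the shares and their order were different. At 0 h the retained_intron type took 45.46 to 50.69% of Srsf3 TPM over lines and 20.68 to 24.01% of Srsf1 TPM. It took 17.48 to 20.75% of Srsf11 TPM and 8.197 to 10.15% of Srsf5 TPM. The nonsense_mediated_decay type took 43.23 to 45.71% of Srsf6 TPM. For Srsf7 the files hold its coding transcript only, and for Srsf10 no transcript of an unproductive type, so nothing can be said of theirs; Srsf9 had 0.179 ± 0.07% of its counts in the nonsense_mediated_decay type. Srsf3-205, the retained_intron transcript with most counts (21.3 ± 1.63% of Srsf3 at 0 h), is 910 bases long in the files. It keeps no whole intron of the leading coding transcript, Srsf3-202. It starts at chr17:29039518, within the poison exon of Srsf3-201, so its share does not measure a whole kept intron. For Srsf3-201, Srsf3-202, Srsf3-204, Srsf3-205 and Srsf7-201 the annotation used here has a later version than the one quantified; Srsf3-201 is 1919 bases long in the files and 2594 bases in the annotation. The poison exon printed for Srsf3-201, the introns given for Srsf3-204 and the start given for Srsf3-205 are those of the later versions.

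**Figure D3:**
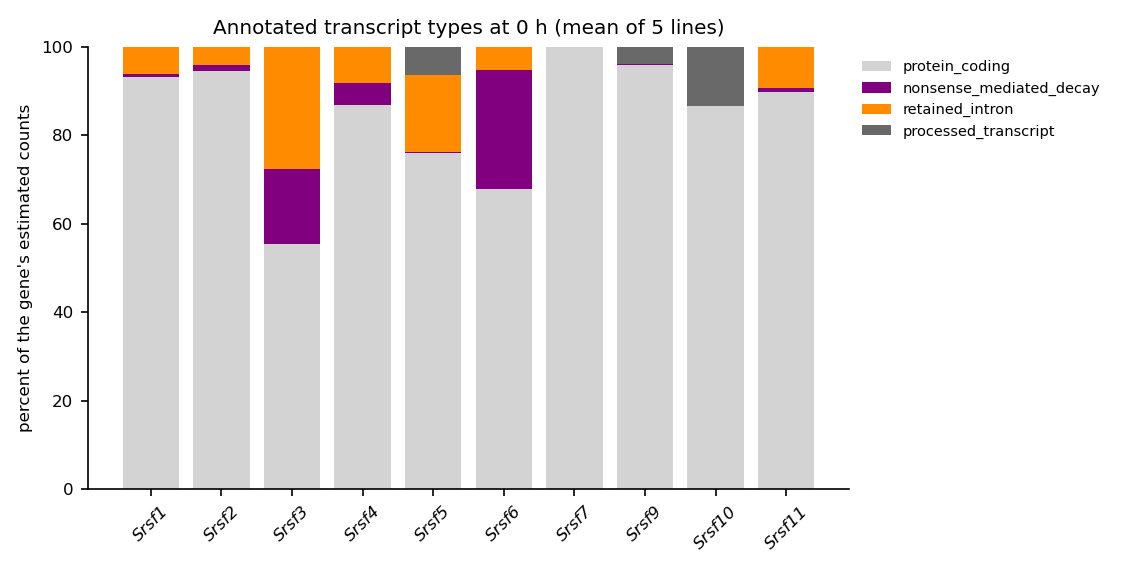
Stacked bars, from 0 to 100%, of the share of each SR gene's estimated counts by annotated transcript type at 0 h, as means of 5 lines. Srsf6 and Srsf3 have the tallest nonsense_mediated_decay segments (27.0% and 16.9%), and Srsf3 and Srsf5 the tallest retained_intron segments (27.6% and 17.5%).

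Among the 7 members whose ratio of unproductive to coding counts could be tested, Srsf5 showed the largest change of that ratio. The retained_intron share of its counts at 0 h was 18.8%, 16.3% and 19.6% in inducible lines A217, A220 and A225 and 16.5% and 16.0% in negative lines A218 and A223. At 4 h it was 26.0%, 24.5% and 22.8% in inducible lines and 23.9% and 24.0% in negative lines. At 24 h it was 11.7%, 10.9% and 8.9% in inducible lines and 8.66% and 9.62% in negative lines. The 3 times did not overlap, and all 5 lines showed the same order, with 4 h above 0 h and 24 h below it.

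Coding and retained_intron transcripts of Srsf5 were also taken separately. The libraries held total RNA depleted of ribosomal RNA. Whether reads of RNA not yet spliced were counted in retained_intron transcripts was not tested. Over the 5 lines, with SD, coding transcripts of Srsf5 averaged 222 ± 9.04 CPM at 0 h, 166 ± 5.71 CPM at 4 h and 271 ± 15.3 CPM at 24 h. Its retained_intron transcripts averaged 50.8 ± 4.56 CPM at 0 h, 58.5 ± 2.92 CPM at 4 h and 31.5 ± 3.92 CPM at 24 h. At 24 h coding CPM was above and retained_intron CPM below its 0 h value in 5 of 5 lines, both without overlap. At 4 h coding CPM was below its 0 h value in 5 of 5 lines without overlap, while retained_intron CPM overlapped with 0 h and was higher in 4 of 5 lines; in inducible A225 both kinds were lower at 4 h (53.8 CPM retained and 168.9 CPM coding) than at 0 h (55.2 and 208.0 CPM). The gene total holds both kinds and also the processed_transcript and nonsense_mediated_decay types. Transcripts of the processed_transcript type had 17.46 to 20.14 CPM over lines at 0 h, 13.65 to 18.28 CPM at 4 h and 13.67 to 16.48 CPM at 24 h.

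The ratio of unproductive to coding counts was tested with limma over 5412 genes that averaged at least 20 counts of each kind, 7 of them members (all but Srsf7, Srsf9 and Srsf10). At 24 h the ratio fell widely: limma called 13.3% of these genes, 13.0% lower, and the median log2 change over all of them was -0.32. Library-wide, retained_intron transcripts took 2.25 ± 0.0691% of all counts at 24 h and 2.6 ± 0.0339% at 0 h, lower in 5 of 5 lines (exact sign-flip test over lines, two-sided p = 0.0625, the smallest that 5 lines can give). The Srsf5 ratio changed by -0.98 ± 0.10 at 24 h (adjusted p = 0.00134) and it was the 1 of 7 members called. Within genotypes it was -0.98 ± 0.13 in inducible lines (adjusted p = 0.0241; 1.31% of genes called) and -0.99 ± 0.16 in negative lines (adjusted p = 0.0341; 0.111% called), and the difference of the responses was 0.01 ± 0.20 (adjusted p = 1.0). With the line as a replicate block both calls within genotypes were lost (adjusted p = 0.0583 in inducible and 0.0506 in negative lines), and that over both genotypes was kept (adjusted p = 0.00493).

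**Figure D4:**
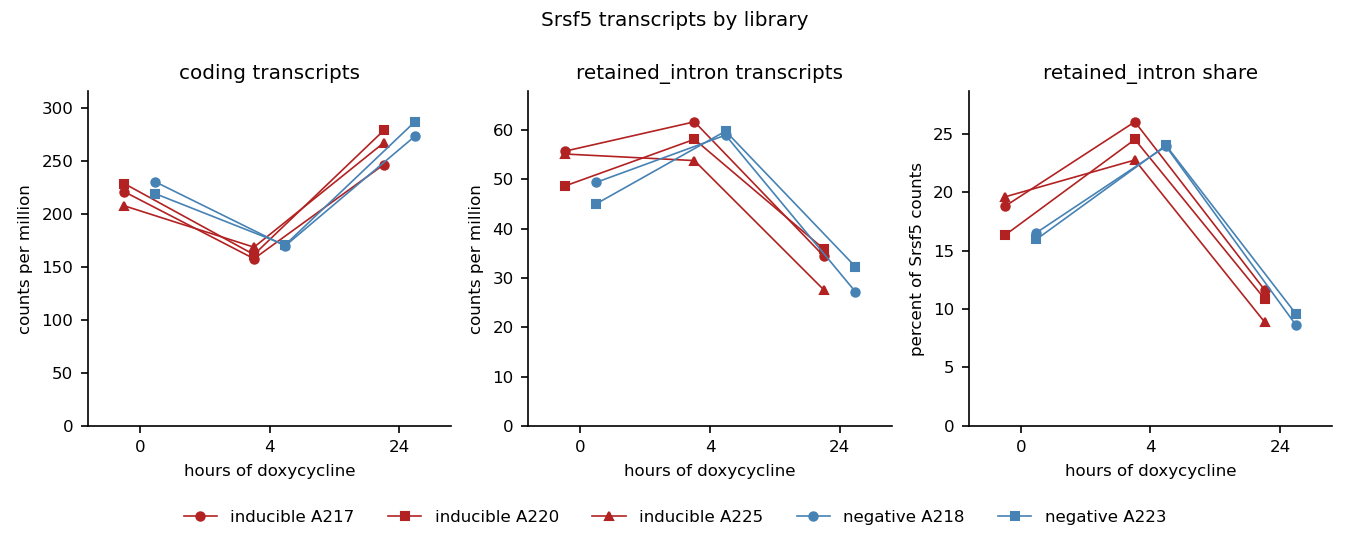
Srsf5 by library against hours of doxycycline (0, 4 and 24, evenly spaced): CPM of coding transcripts (left), CPM of retained_intron transcripts (middle) and the retained_intron share of Srsf5 counts in percent (right), inducible lines in red and negative lines in blue. Coding CPM is lowest and the retained share highest at 4 h, and at 24 h the share is below 12% in all 5 lines.

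At 4 h the Srsf5 ratio changed by 0.64 ± 0.10, with all 5 libraries above all 5 at 0 h, as for 0.979% of genes. Its adjusted p of 0.0561 missed the threshold. It passed in 1 of 7 other settings, among genes with at least 50 counts of each kind (adjusted p = 0.0417), where the 7 ranged from 0.0417 to 0.184 with 0.101 for the line as a replicate block, and in 0 of 10 cases with a library left out (0.0855 to 0.32). Limma called 0 of 7 members and 0.0185% of genes at 4 h. An unadjusted p below 0.05 was reached by 305 of 5412 genes and by 3 members: Srsf5, Srsf3 (0.21 ± 0.07) and Srsf2 (0.27 ± 0.11). The median over all genes at 4 h was 0.03. For the difference of response between genotypes, limma called 0 of 7 members at 4 h, at 24 h and before doxycycline, with 0.0% of genes called and 0 members at an unadjusted p below 0.05 each time.

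Counts of the retained_intron and nonsense_mediated_decay types were also taken apart. The difference between their changes was not tested. With retained_intron counts alone against coding counts, limma called 4 of 7 members lower at 24 h, where it called 24.5% of 4700 genes and the median change was -0.39. These were Srsf5 (-0.98 ± 0.10, adjusted p = 3.9e-04), Srsf6 (-0.51 ± 0.10, adjusted p = 0.00531), Srsf2 (-0.43 ± 0.11, adjusted p = 0.0156) and Srsf11 (-0.36 ± 0.12, adjusted p = 0.0453). The median of all genes lay between the values of Srsf2 and Srsf11. Srsf4 changed by -0.45 ± 0.17 (adjusted p = 0.0669), Srsf1 by -0.06 ± 0.10 and Srsf3 by -0.01 ± 0.07. With nonsense_mediated_decay counts alone, limma called 0 of 6 members and 0.156% of 1917 genes at 24 h, with 0 members at an unadjusted p below 0.05. For Srsf6 this change was 0.05 ± 0.08 and for Srsf3 0.01 ± 0.10, while Srsf1, Srsf2 and Srsf11 had SE of 0.32 or more.

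**Figure D5:**
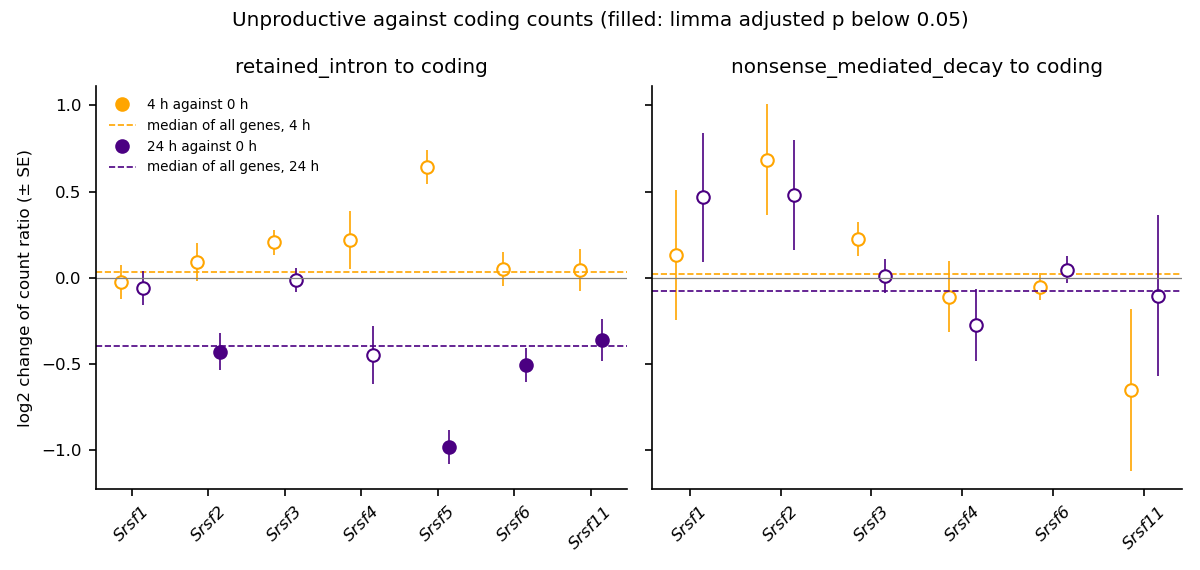
Log2 change (± SE, limma) of the ratio of retained_intron to coding counts (left) and of nonsense_mediated_decay to coding counts (right) at 4 h (orange) and 24 h (purple) against 0 h, averaged over both genotypes; dashed lines are the medians over all genes tested. Filled symbols passed an adjusted p of 0.05: Srsf2, Srsf5, Srsf6 and Srsf11 at 24 h on the left, and no member on the right.

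The shares of the poison exon transcripts overlapped between times. Of the counts of Srsf6, its transcript Srsf6-201 held 27.0 ± 0.77% at 0 h, 26.5 ± 1.49% at 4 h and 28.3 ± 2.21% at 24 h, as SD over 5 lines. Srsf3-201 had 16.9 ± 1.23% of the Srsf3 counts at 0 h, 18.4 ± 1.71% at 4 h and 17.2 ± 1.12% at 24 h.

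Single transcripts showed which transcripts of the retained_intron type changed. At 24 h edgeR called 6 of the 65 member transcripts tested, where it called 2.95% of 57632 transcripts, and the blocked fit called 12 (6.23% of all). Of the 5 that fell, all of the retained_intron type, Srsf5-212 had 28.6, 29.7 and 25.0 CPM in inducible lines and 22.3 and 28.6 CPM in negative lines at 24 h, against 45.7, 41.6 and 44.7 CPM in inducible lines and 41.3 and 38.5 CPM in negative lines at 0 h (log2 change -0.66 ± 0.08, adjusted p = 0.00255). It keeps the intron whose ends are printed above, and every 24 h value lay under every 0 h value.

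Srsf3-204 had 24.5, 21.8 and 21.3 CPM in inducible lines and 18.4 and 19.99 CPM in negative lines at 24 h, against 30.1, 29.9 and 32.2 CPM in inducible lines and 29.7 and 28.0 CPM in negative lines at 0 h (-0.52 ± 0.07, adjusted p = 0.00267). This transcript keeps introns 3 and 4 of the coding transcript Srsf3-202 (chr17:29038625-29040774 and chr17:29040814-29041206, + strand), of which intron 3 contains the poison exon. Its groups did not overlap either, and Srsf5-212 and Srsf3-204 were called with each of 10 libraries left out. So although the summed retained_intron ratio of Srsf3 was near 0, 1 of its retained_intron transcripts fell. Srsf3-204 held 6.33 ± 0.3% of Srsf3 counts at 0 h, 7.8 ± 0.306% at 4 h and 4.98 ± 0.517% at 24 h. These are SD over 5 lines, and the times did not overlap. The retained_intron share of Srsf5 had the same order of times. Srsf3-205, the more abundant, keeps no whole intron of Srsf3-202. It held 22.7 ± 1.36% of Srsf3 counts at 24 h and 21.3 ± 1.63% at 0 h.

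The other transcripts that fell at 24 h were Srsf2-203, which keeps the last of 2 introns, outside the coding exons (-0.55 ± 0.10, adjusted p = 0.0153), Srsf6-204, which keeps intron 2 of 5 with the poison exon inside it (-0.48 ± 0.11, adjusted p = 0.0363), and Srsf4-201 (-0.72 ± 0.16, adjusted p = 0.0408). The retained intron of Srsf6-204 is at chr2:162932143-162933425 (+ strand) and that of Srsf2-203 at chr11:116850962-116852020 (- strand). For Srsf4-201 no whole intron of the leading coding transcript, Srsf4-202, was found kept. The 1 transcript that rose was Srsf5-203, a coding transcript, with 68.2, 78.2 and 73.4 CPM in inducible lines and 75.0 and 74.8 CPM in negative lines at 24 h, against 47.7, 49.1 and 44.9 CPM in inducible lines and 51.2 and 55.3 CPM in negative lines at 0 h (0.56 ± 0.11, adjusted p = 0.0197). At 4 h the same transcript had 23.6, 36.6 and 34.0 CPM in inducible lines and 29.3 and 35.4 CPM in negative lines, below every 0 h value. At 4 h edgeR called 0 of the 65 member transcripts and 0.092% of all. An unadjusted p below 0.05 was reached by 14 of them and by 3550 of all 57632. DESeq2 called 3 of them and 591 of all. The blocked fit called Srsf5-203 (adjusted p = 0.0352) and 160 of all. For the differences between genotypes in response at 4 h and 24 h and in level at 0 h, edgeR and DESeq2 called 0 member transcripts. In edgeR, which called 0.0104%, 0.00868% and 0.00347% of all transcripts, 2, 3 and 3 members had an unadjusted p below 0.05. So did 1757, 2413 and 1822 of all 57632 transcripts. The calls of Srsf2-203, Srsf5-203, Srsf6-204 and Srsf4-201 depended on single libraries. The coding transcripts Srsf5-203, Srsf5-202 and Srsf5-201 are 1491, 1498 and 1527 bases long. Error in assigning reads to transcripts is in neither the transcript tests nor the ratio tests.

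Genes around the family were taken from 5 lists. Of 26 hnRNP genes, whose proteins often act against SR proteins at splice sites, edgeR called 12 lower and 0 higher at 24 h over both genotypes, where it called 7.78% of all genes lower and 18.7% either way (median log2 change -0.13, against 0.00 for all genes), among them Hnrnpa3 (-0.31 ± 0.05, adjusted p = 0.00166) and Hnrnpd (-0.29 ± 0.06, adjusted p = 0.00882). Of 22 SR-related and U1- or U2-associated factors 8 fell and 0 rose (median -0.09), among them Srek1 (-0.33 ± 0.05, adjusted p = 0.00116) and Luc7l (-0.31 ± 0.06, adjusted p = 0.00299). Rsrp1, of the same list, was the 1 gene of the 5 lists that edgeR called at 4 h (0.29 ± 0.06, adjusted p = 0.0286), and it fell at 24 h (-0.23 ± 0.06, adjusted p = 0.0125). Of 3 SR proteins outside the 10 members, Tra2b fell at 24 h (edgeR, -0.19 ± 0.05, adjusted p = 0.0215). At 4 h edgeR called 0 of these 3, with 2 at an unadjusted p below 0.05 and a median log2 change of 0.23. Of all 16462 genes 1915 had such a p, and DESeq2 called 549. DESeq2 called both Tra2a (0.22 ± 0.07, adjusted p = 0.0204; 0.0911 in edgeR) and Tra2b (0.19 ± 0.05, adjusted p = 0.0169; 0.105 in edgeR) higher at 4 h, and of the SR-related list also Rsrp1 and Srek1 (0.20 ± 0.06, adjusted p = 0.013). These DESeq2 calls were looked up after the values were seen.

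Of 13 SR kinases and phosphatases, Srpk1, which phosphorylates SR proteins in the cytoplasm, fell (-0.16 ± 0.04, adjusted p = 0.0175) and Dyrk1b rose (0.75 ± 0.09, adjusted p = 2.2e-04), with a list median of 0.04. The ratio of unproductive to coding counts fell for Clk1 (-0.74 ± 0.11, limma adjusted p = 0.00612) and Clk4 (-0.48 ± 0.12, adjusted p = 0.0215), nuclear kinases of SR proteins whose own RNAs are held with introns, 2 of 10 tested in that list. It also fell for Tra2a (-0.46 ± 0.09, adjusted p = 0.0126), 1 of 2 tested SR proteins outside the members, for 4 of 19 SR-related genes, led by Rsrc1 (-0.96 ± 0.18, adjusted p = 0.0111), and for 3 of 15 hnRNP genes, led by Hnrnpm (-0.69 ± 0.13, adjusted p = 0.011). None of these lists had a member called higher. The counts stand beside 13.0% of all 5412 genes called lower. The median log2 changes of the ratio were -0.22 for the kinases and phosphatases, -0.30 for the SR proteins outside the members, -0.29 for the SR-related genes and -0.03 for the hnRNP genes, against -0.32 for all genes.

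The genes of the decay machinery were not called by edgeR. Of 18 nonsense-mediated decay and exon junction genes edgeR called 0 at 24 h and 0 at 4 h, with 2 and 4 at an unadjusted p below 0.05. DESeq2 called 1 each time. Over all 16462 genes 5327 and 1915 had such a p, and DESeq2 called 3674 and 549. The list's median log2 change at 24 h was -0.01. Of 8 with enough counts of both kinds, the unproductive ratio of Smg5, a decay factor, fell at 24 h (-0.53 ± 0.13, limma adjusted p = 0.0219), and the median of the 8 was -0.50. The lists were compared with the calls over all genes only, and no test of a list was made.

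Across the 15 libraries the members did not all vary together. Srsf7 and Srsf3 were closest to the mean of the other members (Pearson r of standardised log2 CPM 0.916 and 0.893), and Srsf5 ran against it (r = -0.588). Outside the family, the 5 of 16452 genes most like the members' mean were H2afz (r = 0.98), Sf3a3 (0.956), Ptma (0.955), Arhgap19 (0.954) and Serbp1 (0.948). All libraries share the hours of doxycycline, so these values are descriptions.

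Sequence shared with other genes can move reads between them. Of the stretches of 31 bases in the leading coding transcript, 37.6% for Srsf3, 37.0% for Srsf5 and 36.9% for Srsf2 also occur in another gene, 21.3% for Srsf10, 3.76% for Srsf7 and 0.0% for the other 5. Only annotated transcripts were searched, so the 0.0% for Srsf1 leaves out its second copies in the files. For Srsf3, Srsf5, Srsf7 and Srsf10 these are copies outside the family, mainly pseudogenes, that held at most 0.341% of the member's counts. For Srsf2 they are the overlapping genes Mettl23 and Mfsd11, which held 6.25% and 3.98% as many counts as Srsf2. No source here says whether strand was used in counting, so reads of overlapping genes cannot be told apart.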

How the data were processed

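Per the labels' protocols, total RNA was depleted of ribosomal RNA and sequenced as paired-end TruSeq libraries; medium was renewed 24 h before a common harvest. The deposited estimated counts and TPM values per transcript come from kallisto 0.43.1 with GRCm38, per the submitters' processing notes, which also name DESeq2 1.18.1. Transcripts were matched to GENCODE M21 without version numbers (1295 unmatched, 0.556 to 0.593% of counts), and estimated counts were summed per gene and rounded. The release used by the authors is unknown here.

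Genes and transcripts were tested with edgeR 4.0.16 (R 4.3.3; quasi-likelihood, TMM, default filter, 6 group means, all 15 libraries). Ratios were log2((unproductive + 2) / (coding + 2)) of counts, tested with limma 3.58.1; both were tested on simulated data. P-values were adjusted by Benjamini-Hochberg over all features tested, with calls below 0.05; CPM are TMM-scaled. Every member is named, with transcripts holding at least 10% of their gene or called, and up to 4 called genes per list. The 10 members, the gene lists and the tests were chosen with earlier results of these data known. Lines were sampled at every time, so the line pairs libraries (deviations from group means correlated at 0.381 to 0.476 in inducible and 0.238 to 0.285 in negative lines); the line as a replicate block is an alternative, as are DESeq2 1.42.0, limma-voom, other scaling, filters and priors, and left-out libraries. Counts of copies of Srsf1 and ratios within genotypes were added after seeing the data.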

Additional observations from a re-analysis of the deposited data

Results flagged for a closer look

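The files hold 7 transcripts, outside the annotation used for the comparisons, whose lengths and estimated counts equal those of the 7 Srsf1 transcripts in each library. Together they carried a mean of 13370 estimated counts per library, as many as the annotated Srsf1 transcripts, which makes them a signal in data the comparisons of Srsf1 leave out. With them added, Srsf1 stood at 312 ± 17.6 TPM at 24 h and 354 ± 18.1 TPM at 0 h (SD, n = 5 lines).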

How the results depend on the processing

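Members called under other choices, against the count reported, are given in this order. Inducible 4 h (1 reported): 2 with the line as a replicate block, 0 with the compared groups only, and 0 to 1 with a library left out. Inducible 24 h (0): 7 with the block, 7 with limma-voom and a random block, 4 with DESeq2, 1 with a filter of 1 CPM in 3 libraries, and 0 to 3 with a library left out. Negative 4 h (0): 2 with the block, 1 with limma-voom and 1 with DESeq2. Negative 24 h (1): 6 with the block, 6 with limma-voom, 2 with DESeq2, 5 with the compared groups only, and 0 in each left-out case. Both genotypes at 4 h (1): 4 with the block, 4 with limma-voom, 2 with DESeq2, and 0 to 1 with a library left out; at 24 h (7): 1 to 7 with a library left out. For the unproductive ratio at 4 h (0) it was 1 with at least 50 counts, and at 24 h (1) 4 for retained_intron only, 0 for nonsense_mediated_decay only, and 1 to 2 with a library left out. For transcripts at 4 h (0) it was 1 with the block, 3 with DESeq2, and 0 to 1 with a library left out, and at 24 h (6) 12 with the block, 14 with DESeq2, and 2 to 8 with a library left out. Of all 16462 genes, the block, limma-voom and DESeq2 called 4047, 3364 and 1819 in inducible lines at 24 h (839 reported). In negative lines they called 3739, 3107 and 1508 (669). At 4 h they called 409, 167 and 100 in negative lines (29) and 1552, 1062 and 549 over both genotypes (160). The block called 619 in inducible lines at 4 h (48). Of 57632 transcripts, the block and DESeq2 called 160 and 591 at 4 h (53) and 3589 and 5654 at 24 h (1701). In differences between genotypes 0 members were called under each alternative run. The causes were not tested.

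Calls of single genes at 24 h over both genotypes depended on libraries as follows, with the range of adjusted p over the 10 left-out cases (edgeR). Srsf5 stayed called without inducible A217 at 24 h and in no other case (0.0173 to 0.205), and Srsf10 without inducible A217 at 24 h or A220 at 0 h (0.0123 to 0.136). Srsf3 was lost without inducible A217 at 0 h or A220 at 24 h, negative A218 at 0 h or 24 h, or negative A223 at 24 h (0.0105 to 0.107). Srsf11 (0.0145 to 0.0719), Srsf2-203 (0.0191 to 0.0704) and Srsf5-203 (0.0191 to 0.0939) were lost without any 1 of the negative libraries at 0 h or 24 h. Srsf7 was lost without negative A218 at 0 h or A223 at 24 h (1e-03 to 0.0779). Srsf6-204 stayed called without inducible A217 at 24 h, inducible A220 at 0 h or negative A223 at 24 h (0.0207 to 0.144), and Srsf4-201 without inducible A220 or negative A223 at 0 h (0.0365 to 0.173). At 4 h in inducible lines Srsf5 stayed called without A225 at 0 h (adjusted p = 0.0456, range 0.0456 to 0.12 over 6 cases).

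Some values that passed no test changed sign and moved by more than the SE reported for them: the ratio at 24 h for Srsf2 with deposited TPM (0.13) and nonsense_mediated_decay only (0.48) and for Srsf6 with nonsense_mediated_decay only (0.0451), and at 4 h for Srsf6 with retained_intron only (0.0502) and Srsf4 with nonsense_mediated_decay only (-0.11). With single libraries left out the ratio at 24 h ranged from -0.10 to 0.11 for Srsf1 and from -0.106 to 0.0505 for Srsf6, the Srsf9 gene in negative lines at 24 h from -0.0103 to 0.0923, and Srsf4 in inducible against negative lines at 24 h from -0.0531 to 0.134. Among transcripts the ranges were -0.17 to 0.13 for Srsf4-201 and -0.316 to 0.0693 for Srsf11-201 at 4 h, and -0.0250 to 0.364 for Srsf11-201, -0.00499 to 0.142 for Srsf6-201 and -0.13 to 0.17 for Srsf11-204 at 24 h. The SE of the nonsense_mediated_decay ratios of Srsf1, Srsf2 and Srsf11 was at least 0.32 at 24 h, and the cause was not tested. With the line as a replicate block the within-genotype calls of the Srsf5 ratio at 24 h were lost (adjusted p = 0.0583 inducible, 0.0506 negative). Copies of Srsf1 left each call as it was.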
